A study of Mus musculus with 2 samples.

Results

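The SoxB genes are the members of the *Sox* family that encode the SoxB1 factors *Sox1*, *Sox2* and *Sox3* and the SoxB2 factors *Sox14* and *Sox21*. These 5 genes were taken by their symbols, with no threshold on a measured value, from among the 29311 genes listed in each of 2 RNA-seq tables of mouse cells. Of the 5 members, 4 (*Sox2*, *Sox3*, *Sox14* and *Sox21*) had a value in both tables. *Sox1* had no gene model under its own name in the annotation the tables follow, and it was therefore not taken as 0 but examined through the annotated intervals at its locus.

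Sox proteins bind DNA through a high-mobility-group (HMG) domain and act together with partner factors, which help to select the genes they control. SoxB1 factors act mostly as activators: Sox2 works with the POU factor Oct4 (*Pou5f1*) in pluripotent cells, and Sox1, Sox2 and Sox3 keep neural progenitors undifferentiated, there with POU factors of another class. SoxB2 factors carry the same kind of HMG domain but act mostly as repressors, *Sox21* in progenitors that leave the cell cycle and *Sox14* in restricted groups of interneurons and diencephalic neurons.

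Total RNA was sequenced from 1 sample of E14 embryonic stem (ES) cells and from 1 sample of wild-type B6CBAF1/J forebrain at the embryonic stage E10.5, when neurogenesis has begun. E14 is an established mouse ES cell line, also labelled as wild type, and was grown without feeder cells on gelatin in medium with serum and leukaemia inhibitory factor (LIF), which holds ES cells in an undifferentiated state. The forebrain RNA came from a whole dissected tissue, isolated from single embryos according to the methods, whereas the labels give the input of both samples as a number of cells, so the number of embryos behind the forebrain library is uncertain. Strain, culture or embryo, and the RNA reagent (Trizol or Trizol LS) all changed together with the cell type, and with 1 sample per group none of them can be told apart from it.

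No replicates existed, so each value is given with the error of read counting alone and no test between cell types was possible. The level is the deposited value per length of exon, which the authors call RPKM (reads per kilobase of exon and depth) and which allows genes to be compared within a sample. Reads behind each RPKM were recovered from the size of its steps, 1 read being worth 1.2209 RPKM on a gene with 1 kb of exon in ES cells and 0.8191 in forebrain. They were rounded to whole reads, and *Sox3* in ES cells, for example, came to 58.44 before rounding. The 95% intervals are exact Poisson intervals of the rounded reads. If the values were scaled to the depth on genes as an RPKM usually is, 1 read would be worth 0.0234 and 0.0167, so RPKM here names a value on another scale. The steps of the samples multiplied to 1.0, as scaling factors centred on their geometric mean would, and how the authors set them is not stated. The recovered reads on genes came to 42781552 in ES cells and 59782248 in forebrain. The median listed gene had an RPKM of 48.94 in ES cells and 62.37 in forebrain.

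The pluripotent and forebrain markers followed the labels, whereas some markers of other regions and cell types were also high in a sample. All 10 pluripotent cell markers were at least 2-fold higher in ES cells, against 23.3% of all listed genes. All 10 forebrain markers were at least 2-fold higher in forebrain, against 25.8%. *Otx2* and *Lhx2* were the highest of them there, at an RPKM of 989.44 and 876.64. The 7 midbrain and hindbrain markers lay between 1.68 and 25.98 in forebrain, but *Gbx2* stood at 459.98 in ES cells and 8.98 in forebrain, and *En2* at 44.35 and 24.74. In the forebrain library the 6 primitive erythroid markers, led by *Hbb-y* and *Hbb-bh1*, took 0.911% of the reads on genes, and the 8 markers of head mesenchyme and neural crest, led by *Col1a2* and *Pdgfra*, took 0.125%. In ES cells these shares were 0.000635% and 0.000689%. The 6 endothelial markers lay between 0.34 and 551.14 in ES cells and between 239.64 and 601.26 in forebrain, and 5 of them were at least 2-fold higher in forebrain, *Kdr* at 24.99 and 601.26 among them, whereas *Pecam1* was at 551.14 in ES cells and 316.51 in forebrain. In ES cells, the 7 primitive endoderm markers lay between 0.59 and 3.12, whereas of the 7 primitive streak markers *T* (Brachyury) stood at 1112.09 and *Eomes* at 90.06, beside 2.66 and 233.7 in forebrain. In bulk samples such as these, fewer cells expressing a gene and less RNA of it per cell cannot be told apart, and the part of the other cell types in the SoxB levels was not tested.

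The sequences at the *Sox1* locus show what was and was not counted there. The RefSeq promoter of *Sox1* matched the genome of the files (NCBIM37, mm9) once, on chromosome 8, and placed the start of the gene at position 12395519 on the plus strand. With the gene length that RefSeq gives on the later build GRCm38.p6, 4037 bases, the gene would reach to 12399555, and the longest open reading frame inside it, of 391 codons, ran from 12396361 to 12397536. A single annotated exon fell in this stretch: a predicted miRNA gene of 86 bases, AC102525.1 (ENSMUSG00000092656), at chr8:12396403-12396488 on the same strand, 884 bases after the start of *Sox1* and within the reading frame. The following lines give 250 bases before to 30 bases after the start sites of *Sox1* and *Sox2*, and then the counted interval within *Sox1*. Both promoters are RefSeq sequences of GRCm38.p6, given by their matching positions in NCBIM37, chr8:12395269-12395548 for *Sox1* and chr3:34548667-34548946 for *Sox2*, both on the plus strand, and the capitals mark the searched motifs.
Sox1 promoter: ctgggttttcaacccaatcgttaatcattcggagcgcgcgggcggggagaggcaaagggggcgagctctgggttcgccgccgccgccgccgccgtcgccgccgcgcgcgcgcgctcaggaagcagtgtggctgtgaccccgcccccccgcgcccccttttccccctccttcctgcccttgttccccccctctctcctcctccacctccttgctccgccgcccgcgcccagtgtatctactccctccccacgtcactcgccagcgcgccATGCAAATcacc
Sox2 promoter: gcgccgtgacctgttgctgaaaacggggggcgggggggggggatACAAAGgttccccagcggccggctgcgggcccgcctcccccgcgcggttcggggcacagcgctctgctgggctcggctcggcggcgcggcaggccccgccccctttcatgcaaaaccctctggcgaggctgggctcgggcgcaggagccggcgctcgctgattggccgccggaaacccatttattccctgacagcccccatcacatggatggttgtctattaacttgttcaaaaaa
AC102525.1 in Sox1: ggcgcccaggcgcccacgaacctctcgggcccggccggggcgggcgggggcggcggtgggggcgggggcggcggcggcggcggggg

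Among the RefSeq promoters, 4 of the 5 members had an entry (*Sox1*, *Sox2*, *Sox14* and *Sox21*). Short motifs were searched on both strands over each whole RefSeq promoter entry: ATGCAAAT, the octamer bound by POU factors such as Oct4, and ACAAAG, a core read by Sox HMG domains. The *Sox1* promoter held the octamer at position 19 after the start, a motif found in 1.74% of the 32851 promoters. The *Sox2* promoter held the Sox core at position -206, a motif found in 18.7% of all promoters. *Sox14* and *Sox21* held neither within this window, and such matches describe letters, not bound sites. The 4 promoters resembled each other in base composition: their GC content lay between 65.7% and 70.7%, beside a median of 52.7% over all promoters, and their ratio of observed to expected CpG between 0.687 and 1.07, beside 0.384.

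The SoxB genes fell into different patterns between the cell types. *Sox2* was the highest of the 4 in both samples and was higher in ES cells, *Sox3* and *Sox21* were low in ES cells and higher in forebrain, and *Sox14* had a similar low level in both. On the scale of log2(RPKM + 1), 2 of the 4 genes were at least 2-fold higher in forebrain, against 25.8% of all listed genes, and 1 of the 4 was at least 2-fold higher in ES cells, against 23.3%. With 4 genes, these counts are a description and set nothing apart from the background. The median difference over all listed genes was 0.013 on this scale.

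**Figure D1:**
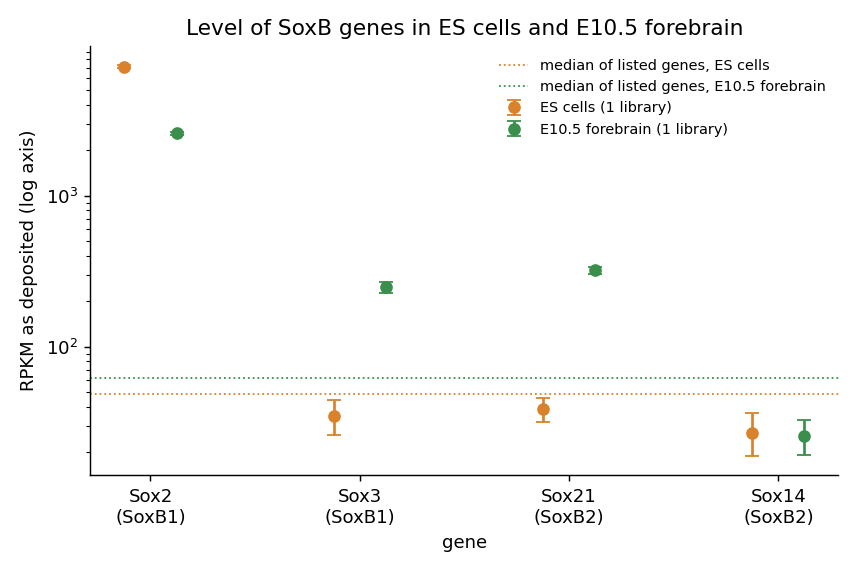
Levels of the SoxB genes in ES cells and E10.5 forebrain. Points give the RPKM of 1 sample each on a log axis and bars the exact Poisson 95% interval of the recovered reads, dotted lines the median listed gene of each sample, with *Sox2* at 7181.95 and 2602.06, *Sox3* and *Sox21* higher in forebrain, and *Sox14* at 26.91 and 25.47.

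*Sox2* (ENSMUSG00000074637), the SoxB1 gene used by pluripotent and neural cells alike, lies on chromosome 3 (NCBIM37, 34548927 to 34551383, plus strand) with 2457 bases of exon. Its level was 7181.95 RPKM in ES cells (14453 reads, 95% interval 7065 to 7300) and 2602.06 in forebrain (7805 reads, 2545 to 2660). The gene was thus strongly expressed in both cell types and had rank 575 of the listed genes in ES cells and rank 1278 in forebrain, at 147 and 41.7 times the median listed gene. It was 2.76-fold higher in ES cells (2.68 to 2.84), a log2 difference of -1.46 for forebrain minus ES cells. The intervals of the samples were far apart, but 16.4% of all listed genes had a difference as low or lower, so a shift of this size was not rare among genes.

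*Sox3* (ENSMUSG00000045179), the X-linked SoxB1 gene of neural progenitors, lies on chromosome X (58144545 to 58146605, minus strand). It had a level of 34.62 in ES cells (58 reads, 26.09 to 44.42) and of 247.42 in forebrain (623 reads, 228.5 to 267.8). In ES cells it therefore stood just below the median gene (0.707 times), and in forebrain 3.97 times above it. The gene was 7.15-fold higher in forebrain (5.5 to 9.6), with a log2 difference of 2.8 at percentile 90.3 of all listed genes. In spite of this, the level of *Sox3* in forebrain remained well under that of *Sox2*, and the summed RPKM of *Sox2* and *Sox3* was 7216.57 in ES cells and 2849.48 in forebrain, 2.53-fold higher in ES cells.

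*Sox1*, the SoxB1 gene that marks the neuroectoderm, could be followed only through AC102525.1. This 86-base interval held 0 reads in ES cells and 23 reads in forebrain, an RPKM of 219.06 (139 to 329). Since 3 reads, the limit that a count of 0 allows, correspond to an RPKM of 42.6 in the ES library, the interval was at least 3.26-fold higher in forebrain at the lower limit of its value there. Its sequence is 91.9% GC, as the printed run of g and c shows, and had no further copy in the genome at 90% identity over 50 bases. Whether these reads belong to the *Sox1* transcript was not tested, and the RPKM of such a short interval is not a level of the *Sox1* gene. A longer gene model on the same strand, Gm5607 (ENSMUSG00000047935, chromosome 8, 12385771 to 12436729), spans the *Sox1* locus without an exon inside it. It had 47 reads and an RPKM of 11.42 in ES cells and 407 reads and 65.95 in forebrain, 5.77-fold higher in forebrain.

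**Figure D2:**
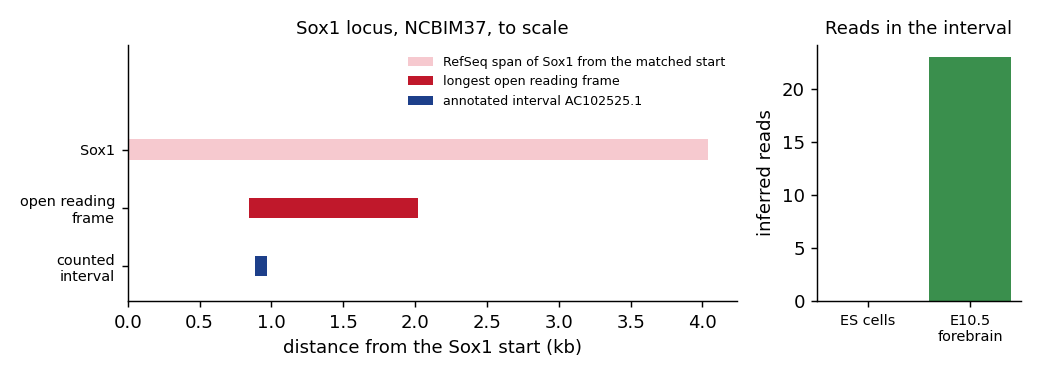
The region around the *Sox1* start site, with distance from the start in kb on the horizontal axis. The boxes mark the RefSeq extent of *Sox1*, its longest open reading frame and the counted 86-base interval. The bars beside them give the recovered reads in that interval, 0 in ES cells and 23 in forebrain.

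*Sox21* (ENSMUSG00000061517), the SoxB2 gene of neural progenitors, lies on chromosome 14 (118632454 to 118636252, minus strand). Its level was 38.68 in ES cells (120 reads, 31.97 to 46.11) and 321.65 in forebrain (1492 reads, 305.6 to 338.4). It was 8.32-fold higher in forebrain (6.92 to 10.1), a log2 difference of 3.02 at percentile 91.5, the widest difference of the 4 SoxB genes. The interval of its ratio overlapped that of *Sox3*, so the sizes of the shifts of these SoxB1 and SoxB2 genes could not be told apart within counting error.

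*Sox14* (ENSMUSG00000053747), the other SoxB2 gene, lies on chromosome 9 (99774644 to 99776663, minus strand). Its level was 26.91 in ES cells (40 reads, 19.01 to 36.24) and 25.47 in forebrain (57 reads, 19.27 to 32.97). The ratio of forebrain to ES cells was 0.946 (0.627 to 1.47), hence a difference was not detectable at this depth, and the interval reached from 1.59-fold higher in ES cells to 1.47-fold higher in forebrain. The sign of its log2 difference, -0.08 as deposited, depended on the scaling of the samples and was positive (0.19) when each table was scaled to its sum. In both samples the gene was lower than the median gene, 0.55 and 0.408 times, although with 40 and 57 reads it was above 0. The summed RPKM of the SoxB2 genes was 65.59 in ES cells and 347.12 in forebrain, 5.29-fold higher in forebrain, of which *Sox21* gave 321.65.

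The order of the 4 genes was the same in both samples, *Sox2*, *Sox21*, *Sox3* and *Sox14*, but the steps differed. In ES cells *Sox2* was 186-fold above *Sox21*, and the steps from *Sox21* to *Sox3* (1.12-fold) and from *Sox3* to *Sox14* (1.29-fold) lay within overlapping intervals, so the lower 3 genes could not be ordered by neighbour. In forebrain the corresponding steps were 8.09-fold, 1.3-fold and 9.71-fold, and none of the intervals overlapped. ES cells thus had 1 high SoxB gene beside 3 low ones, whereas forebrain had *Sox2* followed by *Sox21* and *Sox3* at intermediate levels and *Sox14* apart.

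**Figure D3:**
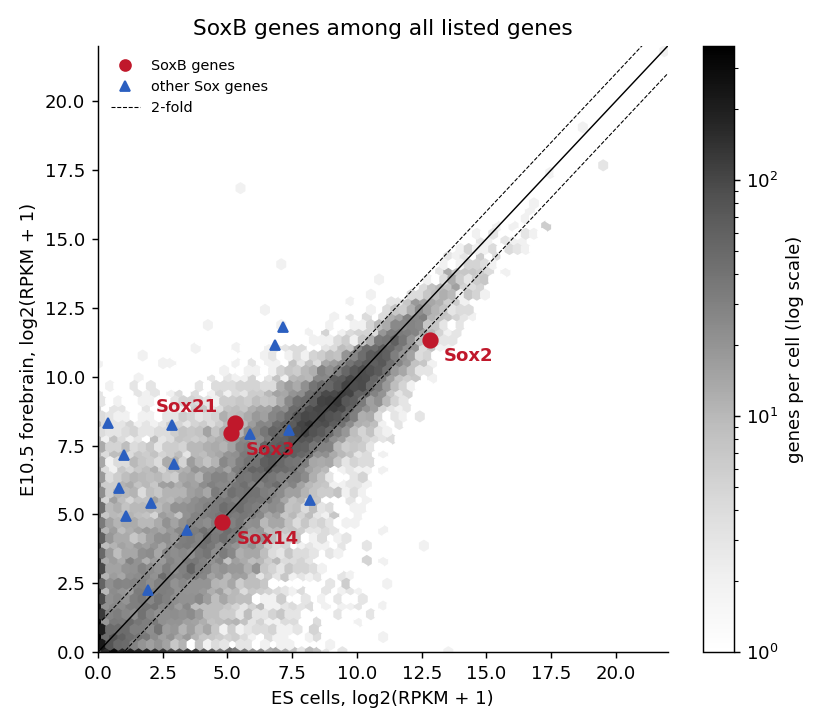
Every listed gene by log2(RPKM + 1) in ES cells (horizontal) and in E10.5 forebrain (vertical), as shaded cells of gene number, with the 4 SoxB genes as red points, other *Sox* genes as blue triangles and dashed lines at 2-fold. *Sox2* lies below the diagonal at the upper right, *Sox3* and *Sox21* lie together above it, and *Sox14* lies on it.

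Within the *Sox* family, the 4 SoxB genes with a value made up most of the signal in ES cells but not in forebrain. Over the 18 *Sox* genes with a value, the summed RPKM was 8080.16 in ES cells and 10587.2 in forebrain, of which the SoxB genes took 90.1% and 30.2%. *Sox1* had no value and is missing from these sums and shares. *Sox2* alone took 88.9% in ES cells and 24.6% in forebrain, and without *Sox2* the other 3 SoxB genes took 11.2% and 7.45% of the remaining sum. The share of *Sox3* was 0.428% in ES cells and 2.34% in forebrain, that of *Sox21* 0.479% and 3.04%, and that of *Sox14* 0.333% and 0.241%. The lower SoxB share in forebrain went along with a 2.28-fold lower SoxB sum and with a higher sum of the other 14 genes, which was 798.0 in ES cells and 7390.56 in forebrain.

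In forebrain the SoxC genes *Sox11* and *Sox4*, which act in newly formed neurons, stood at 3542.06 and 2263.3, at either side of *Sox2*, and took 33.5% and 21.4% of the family's sum. In ES cells they stood at 139.19 and 112.79. *Sox9*, a SoxE gene of neural stem cells and neural crest, had 1 read in ES cells (RPKM 0.3) and 1622 reads in forebrain (321.3), close to *Sox21*. *Sox5*, a SoxD gene, was at 1.02 and 143.24. The highest family member after *Sox2* in ES cells was *Sox15*, the SoxG gene, at 292.1, beside 44.71 in forebrain, 6.53-fold lower. *Sox13* had 164.08 and 265.84, within 2-fold. Of the 14 other *Sox* genes, 10 were at least 2-fold higher in forebrain, 1 was higher in ES cells and 3 were within 2-fold, with a median log2 difference of 3.88. Over all listed genes 25.8% were called higher in forebrain and 23.3% in ES cells, and the median was 0.013. Some of these genes are also used outside the nervous system: *Sox7*, *Sox17* and *Sox18* of the endothelium, at 30.05, 41.29 and 60.67 in forebrain, were higher in forebrain, as were 5 of the 6 endothelial markers (not *Pecam1*), and the part of endothelial cells in their levels was not tested.

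**Figure D4:**
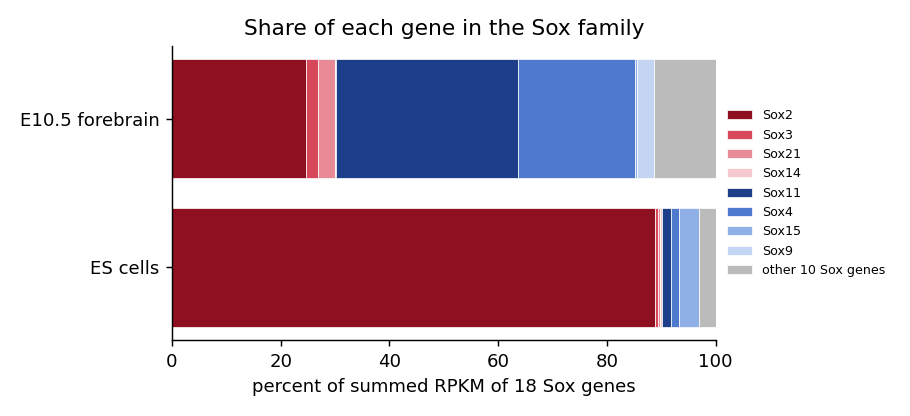
Share of each *Sox* gene in the summed RPKM of the 18 *Sox* genes with a value, in percent, for ES cells and E10.5 forebrain. SoxB genes (without *Sox1*, which had no value) fill 90.1% of the ES cell bar and 30.2% of the forebrain bar, in which *Sox11* and *Sox4* take 33.5% and 21.4%.

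The genes next to the SoxB genes did not all move with them. *Sox2* lies inside *Sox2ot* (ENSMUSG00000090828, chromosome 3, 34003360 to 34581541, plus strand), a long non-coding transcript unit on the same strand whose exons do not overlap those of *Sox2*. *Sox2ot* had 32.25 RPKM in ES cells (228 reads) and 114.55 in forebrain (1207 reads), 3.55-fold higher in forebrain, opposite in direction to *Sox2*. Mir1897 is a miRNA gene of 79 bases in an exon of *Sox2ot*, on the same strand and 11.5 kb from *Sox2*. It had 0 reads in ES cells and 55 in forebrain (RPKM 570.25, 430 to 742). This is at least 9.27-fold higher when the lower limit is set against the 3 reads that a count of 0 allows. Whether these reads come from the *Sox2ot* transcript was not tested. Another predicted miRNA gene, AC137708.1 at 59.4 kb, had 0 reads and 1 read, and the nearest listed gene on the far side, a U6 copy 1080 kb away, 1 read and 0.

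Next to *Sox3*, the transcript Gm14662 starts 223 bases away on the opposite strand and showed the same direction as *Sox3*: 0 reads in ES cells and 40 in forebrain (RPKM 44.64, 31.9 to 60.8), at least 6.39-fold higher by the same measure. The 3 pseudogenes within 100 kb were lower in forebrain by less than 2-fold, Gm7076 at 72.29 and 53.89, Gm14660 at 509.76 and 310.9 and Rpl7l1-ps1 at 1327.52 and 875.43 in ES cells and forebrain. Such pseudogenes may share reads with their parent genes, so their levels are uncertain. Gm14661, 83.4 kb away, had 12 reads in ES cells and 2 in forebrain.

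*Sox21* is overlapped on the opposite strand by the long non-coding transcript Gm4675 (ENSMUSG00000090534, chromosome 14, 118635454 to 118660421), whose exons share 713 bases with the exon of *Sox21*. Gm4675 stood at 1.99 RPKM in ES cells (5 reads) and 78.25 in forebrain (293 reads), 39.3-fold higher in forebrain. The libraries were prepared strand-specifically, but whether the counting used the strand is not stated, and how many reads the pair shares was not tested. Gpr180, 69.0 kb from *Sox21*, had 273.92 and 325.13, within 2-fold, and Gm9376, at 30.1 kb, had 25 reads in ES cells and 0 in forebrain. A SNORA17 copy at 63.0 kb had 1 read and 0.

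*Sox14* had no listed neighbour within 100 kb. The nearest were Gm16004 at 118 kb, with 1 read in ES cells and 0 in forebrain, and *Il20rb* at 581 kb, with 21.92 and 9.83. The nearest protein-coding gene beyond the *Sox1* locus, *Tubgcp3* at 215 kb, had 380.81 and 777.74, and a 7SK copy on the other side 0 reads and 1 read.

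The genes listed as partners and targets of SoxB factors in each cell type were higher in that cell type. They were chosen for their role there, and some are also cell type markers. These are *Pou5f1*, *Nanog*, *Esrrb*, *Zfp42*, *Klf4*, *Tdgf1* and *Fgf4*, and *Otx2*, *Pax6* and *Rax* of the neural list. The direction of these lists thus overlaps with the marker check and is no measure of SoxB activity. All 12 partners and targets of Sox2 in pluripotent cells were at least 2-fold higher in ES cells, against 23.3% of all listed genes. Their median log2 difference was -8.05. Oct4 (*Pou5f1*), the POU partner of Sox2, stood at 11243.84 in ES cells and 42.9 in forebrain, 262-fold, whereas *Sox2* itself differed by 2.76-fold. *Tdgf1*, a co-receptor of Nodal, was at 6431.61 in ES cells and 4.72 in forebrain, and the growth factor *Fgf4*, whose enhancer is bound by Sox2 with Oct4, at 1476.32 and 1.89 (7 reads). The members of the list that differed least were the zinc-finger factor *Sall4* (2129.46 and 239.91, 8.88-fold) and *Klf4* (898.53 and 37.66, 23.9-fold).

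Conversely, all 13 partners and targets of SoxB1 factors in neural progenitors were at least 2-fold higher in forebrain, against 25.8% of all listed genes. Their median log2 difference was 4.49. *Fabp7*, a fatty-acid-binding protein of radial glia, was at 4.88 in ES cells (5 reads) and 3551.25 in forebrain, and the POU partner *Pou3f3* at 0.8 (2 reads) and 817.33 (3055 reads). *Nes*, the intermediate filament of neural progenitors, stood at 182.9 and 4127.24, above *Sox2* in forebrain. The genes that differed least were the receptor *Notch1* (112.25 and 483.01, 4.3-fold) and *Chd7* (62.12 and 560.16, 9.02-fold), a chromatin remodeller that binds Sox2. The POU partner *Pou3f2* and *Shh* had 0 reads in ES cells, and 407.73 and 164.91 RPKM in forebrain.

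Among the 12 proneural and neuronal genes, 11 were at least 2-fold higher in forebrain and 1 in ES cells, against 25.8% and 23.3% of all listed genes. Their median log2 difference was 5.1. *Neurog2*, a proneural factor whose activity SoxB1 proteins counteract, had 1 read in ES cells and 1087 in forebrain (399.98), and the microtubule protein *Dcx* of young neurons 2 reads and 3910 (253.17). The neuronal tubulin *Tubb3* was at 795.19 and 3318.34, 4.17-fold. The exception was *Stmn2*, a microtubule regulator of growing neurites, at 6910.29 in ES cells and 1056.31 in forebrain, 6.54-fold higher in ES cells. The forebrain library thus held RNA of both progenitor and neuronal genes, and the level of *Sox2* in progenitors alone cannot be read from it.

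The 7 genes listed as corepressors of SoxB factors or their partners were mixed. Whether each of them, *Gmnn* included, is recruited by SoxB factors was not tested. Of the 7, 3 were at least 2-fold higher in forebrain, 1 in ES cells and 3 were within 2-fold. Their median log2 difference was 0.94. Beside 25.8% and 23.3% of all listed genes, counts of 3 and 1 among 7 set nothing apart. The Groucho family members *Tle2* (2.16 and 21.37, 9.89-fold) and *Tle1* (179.68 and 578.91, 3.22-fold) were higher in forebrain. *Ctbp2* was higher in ES cells (3060.61 and 1135.8, 2.69-fold), and *Gmnn* (geminin) was at 2895.41 and 1806.61, a log2 difference of -0.68.

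**Figure D5:**
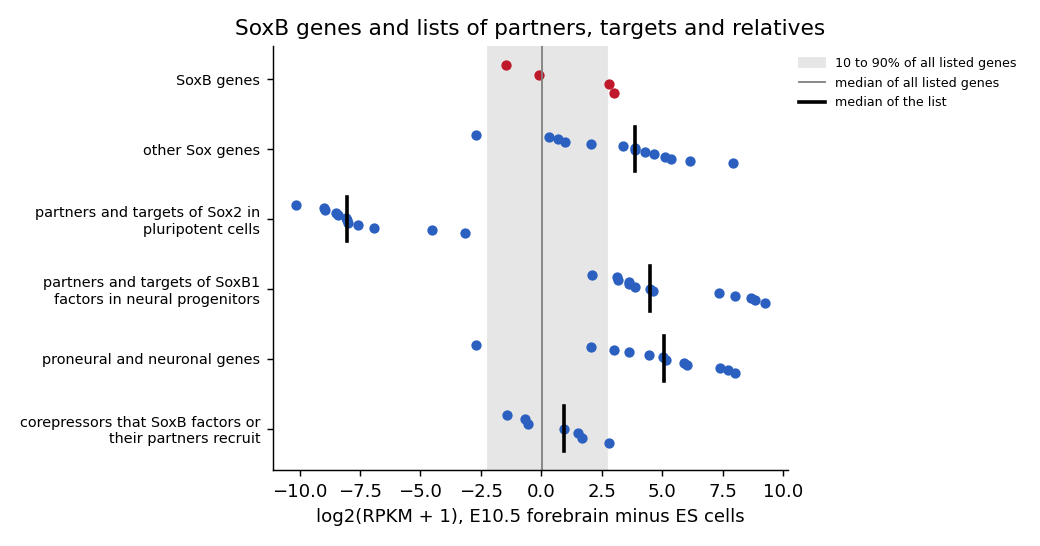
Difference in log2(RPKM + 1), forebrain minus ES cells, for the SoxB genes, the other *Sox* genes and the 4 lists of partners, targets and corepressors. Each point is a gene, the grey band spans the 10th to 90th percentile of all listed genes, and the black lines are list medians, -8.05 for the Sox2 list of pluripotent cells, 4.49 for the SoxB1 list of neural progenitors, 5.1 for proneural and neuronal genes and 0.94 for corepressors.

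The protein-coding genes closest to each SoxB gene were found by their distance in log2(RPKM + 1) over the 2 samples, which with 2 values per gene describes only similar levels. Among the nearest to *Sox2* were *Atox1* (distance 0.096) and *Eef1a1* (0.115). *Kif21b*, *Setd7* and *Stat5b* were nearest to *Sox3*, at 0.077 to 0.103. *Acsf2*, *Nkx2-9* and *Radil* were nearest to *Sox14*, at 0.016 to 0.079. *Atp6v0e2*, *Magee1* and *Fgfrl1* were nearest to *Sox21*, at 0.041 to 0.098.

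A search of the genome with the exons of each member asked whether reads could be shared with near copies. No stretch of 50 bases or more at 90% identity was found elsewhere for *Sox2*, *Sox14* and *Sox21*, and 2 were found for *Sox3*, the longer of 53 bases, none of them in another member. The *Sox1* stretch had 57 such matches, of up to 55 bases.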

How the data were processed

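Ribosomal RNA was removed from total RNA before stranded libraries were made and sequenced from one end, with a read length of 100 bp per the labels and 50 bp in the methods. Mapping to NCBIM37 (mm9) was done by the authors in HTSstation, and they deposited 1 RPKM value per gene. The submitters' processing notes name Bowtie 0.12.7, and the scaling between samples and the use of strand in counting are not given in the sources used here. All 29311 genes of each table had the coordinates of the Ensembl 65 annotation, which holds 37310 genes.

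From the deposited RPKM, reads were recovered by dividing by the step of 1 read per kb of exon, which was fitted to genes whose exons add up to at most 2500 bp. Of the low values, up to 10 steps, 59.9% in ES cells and 61.9% in forebrain lay within 0.05 of a whole read, and the source of the other values was not tested. Totals were 42781552 and 59782248 reads. A gene is called higher at 2-fold on RPKM + 1 (pseudocount of 1), with no filter. Exact Poisson intervals, conditional binomial intervals of ratios and the floor of 3 reads cover counting error only, at a confidence of 95%. The floor is a limit on the upper side alone. The intervals have a limit on each side, so their upper end for 0 reads would lie above the floor. Folds given as at least a value would then be smaller. The step estimate and intervals were tested on simulated data made of whole reads only. Values off whole reads, as in the deposited data, were not covered by that test. Python 3.11.15 with numpy 2.4.6, pandas 2.3.3, scipy 1.17.1 and matplotlib 3.10.9, samtools 1.23.1 and blastn 2.17.0 were used.

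The members and lists were chosen with earlier results of these data known. Named genes were the members, genes overlapping or within 100 kb of them and the nearest listed gene on each side, of each list the 2 highest and 2 lowest log2 ratios among genes reaching an RPKM of 5 in a sample, of marker lists the 2 highest levels in each sample (given mostly as ranges and counts, with the genes that led a list or went against it named), and the 3 protein-coding genes nearest in level to each member, of which 1 is not reported here. *Sox4*, *Sox7*, *Sox11*, *Sox17*, *Sox18*, *Nes*, *Pou3f2*, *Shh* and *Pou5f1* as a partner were named after their values were seen. *Nanog* and *Esrrb* were named only because they are also markers. *Sry* of the family and a SNORA17 copy near *Sox14* had no value here. The protein comparison was not made. Promoters are from RefSeq (GRCm38.p6). Alternatives were other pseudocounts, scalings, thresholds, lengths and gene sets.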

Additional observations from a re-analysis of the deposited data

How the results depend on the processing

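No result changed direction for *Sox2*, *Sox3* or *Sox21* under the scalings and pseudocounts tried, whereas *Sox14* had log2 differences of 0.19 and 0.01 when scaled to the summed values or to the recovered reads of a sample, against -0.08 as reported. Scaling to the sum moved the median of all genes to 0.26, against 0.013. The log2 difference of *Sox2* was -1.19 when scaled to the sum, -1.55 to the upper quartile and -1.37 to the recovered reads, each beyond its counting interval. With the same scalings the SoxB1 sum ratio (*Sox2* and *Sox3*), forebrain over ES cells, was 0.477, 0.372 and 0.421 against 0.395. The SoxB2 ratio was 6.39 with the sum against 5.29. At a threshold of 4-fold, forebrain still had 2 SoxB genes that were higher and ES cells had 0. The SoxB share of the family was 93.5% in ES cells and 45.4% in forebrain without the highest other gene, 23.3% in forebrain with reads in place of RPKM, and, in an alternative added after seeing the data, 11.2% and 7.45% without *Sox2*. With the longest transcript as length, *Sox14* had 41 reads in forebrain in place of 57. All 16 alternatives for ranks (other gene sets) gave other percentiles. Of 72 alternatives in all, 42 left their result the same by a set rule. For ratios between the samples this rule was the counting interval. For counts and percentages of genes past a threshold it was a fixed fold range, which does not measure counting error. No paired analysis was possible because each group has 1 sample, and depth limits *Sox14* and the *Sox1* interval most.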
